A study of Homo sapiens with 4 samples.

Results

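Coding peaks that cross exon junctions were examined in maps of N6-methyladenosine (m6A), the methyl mark on adenosine that is the most common internal modification of messenger RNA. The members were chosen by the deposited annotation: a distinct peak whose transcript region was given as coding sequence alone, and which was made of at least 2 exon blocks, so that it bridged at least 1 intron. They numbered 5845 of 32069 distinct peaks in the A549/DDP list and 5002 of 27319 in the A549 list, or 10847 of 59388 in all. They are called coding junction peaks here, and the coding peaks lying within a single exon are called 1-block coding peaks. No fold, p-value or other measured strength entered the choice.

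A549/DDP is a lung adenocarcinoma line that the labels describe as resistant to cisplatin, the DNA-crosslinking platinum drug abbreviated DDP, and A549 is the sensitive line. Both are established human cell lines grown in DMEM with fetal serum. No drug exposure at harvest is given in the sources used here. In methylated RNA immunoprecipitation sequencing (MeRIP-seq), fragments pulled down with an antibody against m6A are sequenced beside the input fragments. There was 1 immunoprecipitated and 1 input library per line, so the 2 lines could not be checked against replicates and no difference between them was tested.

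As background, m6A is written while the transcript is made, mainly at a short adenosine-centred motif, by a complex built around METTL3 and METTL14. It is most frequent in long internal exons and around the stop codon. The exon junction complex, which splicing deposits on the RNA just upstream of each junction, keeps the methyltransferase away from nearby sequence, so short internal exons tend to carry little m6A. A MeRIP peak is wider than the mark, and a peak across a junction does not place a methylated base at that junction.

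The coding junction peaks made up 49.7% of the peaks in coding sequence alone in A549/DDP (95% exact binomial interval 48.8 to 50.6%) and 50.5% in A549 (49.5 to 51.5%). These intervals, like all those that follow, cover counting error alone. They are too narrow, because isoforms of 1 gene can each contribute a peak over the same bases. The members lay in 1590 genes in A549/DDP, 22.6% of the genes with any peak, and in 1400 genes in A549, 21.7%. They carried 4914 transcript identifiers in A549/DDP and 4292 in A549. Overlapping members merged into 1957 regions in A549/DDP and 1695 in A549. CAST, which encodes the calpain inhibitor calpastatin, had the most members, with 58 in A549/DDP and 55 in A549, yet these merged into 4 and 3 regions.

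A member covered a median of 267 exonic bases in A549/DDP and 240 in A549. On the genome it spanned a median of 3536 bases in A549/DDP and 2664 in A549. The longest bridged intron, of 593993 bases, was the same in both lists and lay in PCDH9, a protocadherin gene. Members of 2 blocks, which cross 1 junction, were the most frequent kind, with 2771 peaks (47.4%) in A549/DDP and 2515 (50.3%) in A549. Members of 6 or more blocks numbered 442 in A549/DDP and 301 in A549.

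The exons bridged whole are those inside a peak with a junction on either side. Such an exon has to fit inside a peak, which limits its length, and other exons were not measured beside them. There were 2526 distinct whole exons in A549/DDP with a median of 105 bases, and 1982 in A549 with a median of 107 bases. In A549/DDP 8.79% of them had 200 or more bases, and in A549 9.03% did. A length divisible by 3, which keeps the reading frame when an exon is skipped, was found in 45.4% of the whole exons in A549/DDP and in 45.6% in A549. The blocks within a peak were unequal: the largest block held a median of 59.1% of the peak's bases in A549/DDP and 60.8% in A549. Very short blocks occurred as well, since 14.4% of members in A549/DDP and 15.5% in A549 had a block of under 10 bases.

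The longest chains of exons were in collagen genes. COL7A1, the anchoring-fibril collagen, had peaks of up to 30 blocks in A549/DDP and up to 33 in A549. A 30-block peak in A549/DDP lay on chromosome 3, 48603090 to 48610461 of hg19, on the minus strand, with 1677 exonic bases and a fold of 5.13. A 33-block peak in A549 lay at 48602921 to 48610777, with 1827 exonic bases and a fold of 12.4. Folds and p-values here and below are the authors' own values for each peak, taken from the deposited lists. They rank peaks within a list, and no test of a difference was made from them.

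The whole exons of COL7A1 had a median of 54 bases in A549/DDP and 47 in A549. Of these, 27 of 36 in A549/DDP and 40 of 50 in A549 were multiples of 9 bases, the length that encodes 1 glycine-led collagen triplet. COL7A1 also had the most junctions inside members of both lists, 39, and COL4A2, a basement membrane collagen, had 22. The RNA-binding protein gene SLTM had 19, and the nucleosome remodeller CHD3 had 17. COL6A1 had a 22-block peak in A549/DDP with a fold of 9.84, and COL6A2 had a 20-block peak there with a fold of 7.75. In A549 the ribosome-binding protein gene RRBP1 came after COL7A1, with a 19-block peak of fold 4.71.

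The enrichment of a member grew with its number of blocks. In A549/DDP the median fold was 2.82 for 2 blocks, 3.03 for 3, 3.33 for 4, 3.88 for 5 and 4.57 for 6 or more. In A549 the medians were 2.80, 2.88, 2.97, 3.25 and 4.15 in the same order. The 1-block coding peaks lay above most of these, with a median of 3.98 in A549/DDP and 4.28 in A549. Over all members the median fold was 3.10 in A549/DDP and 2.95 in A549. Members with more blocks were also longer. Their median exonic length rose from 179 bases at 2 blocks to 735 at 6 or more in A549/DDP, and from 179 to 712 in A549. Fold by block number was not compared at matched length.

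**Figure D1:**
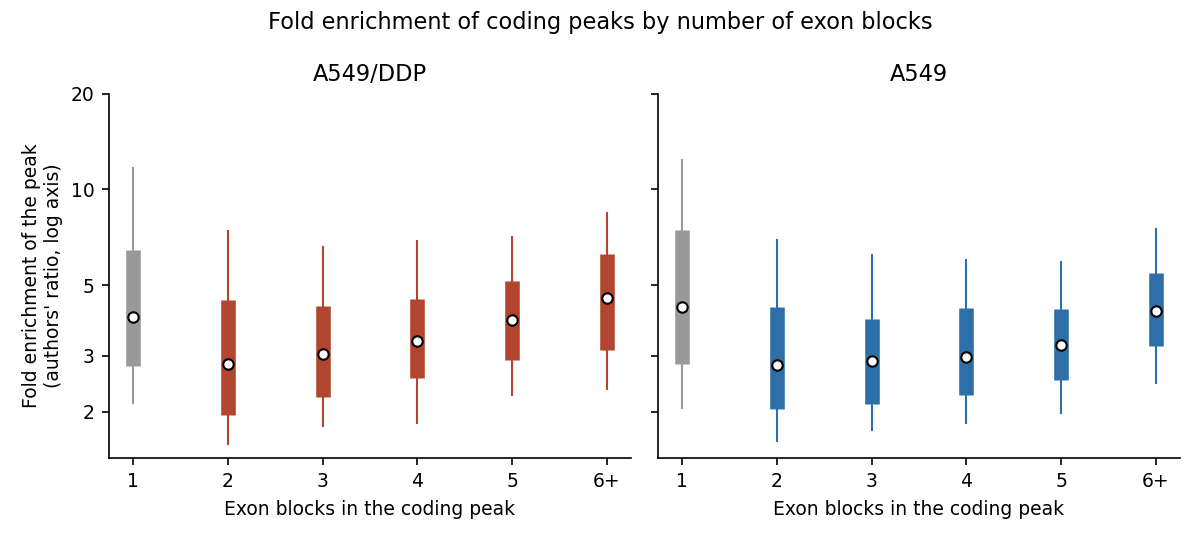
Fold enrichment of coding peaks (the authors' ratio, log axis) by number of exon blocks in A549/DDP (left) and A549 (right). Grey marks 1-block peaks and colour marks coding junction peaks; circles are medians, thick bars run between the quartiles and thin lines between the 10th and 90th percentiles. Medians climb from 2.82 at 2 blocks to 4.57 at 6 or more in A549/DDP and from 2.80 to 4.15 in A549, while 1-block peaks stand at 3.98 and 4.28.

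The p-values ranked the other way. The median p of members was 1.51e-09 in A549/DDP, against 3.8e-05 for 1-block coding peaks, and 1e-07 in A549, against 6.76e-05. Of the members 56.3% in A549/DDP and 49.7% in A549 had a p below the median of their list, whereas 25.5% and 22.7% of 1-block coding peaks did. Over the whole list, members therefore combined a lower fold with a smaller p. They were also longer, 267 against 179 exonic bases in A549/DDP and 240 against 151 in A549.

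At similar length the fold stayed lower. Among peaks of 150 to 210 exonic bases, members had a median fold of 2.59 and 1-block peaks 3.87 in A549/DDP, with 1253 and 1421 peaks. In A549 the medians were 2.42 for 1199 members and 4.36 for 1184 1-block peaks. The authors' median p of these members stayed smaller, 4.27e-06 against 3.8e-05 in A549/DDP and 7.41e-06 against 5.5e-05 in A549. Within genes that carried both kinds, the picture differed. In A549/DDP 505 genes had both kinds, and the median fold of the gene's members was the higher in 290 of them and the lower in 209. In A549 it was the higher in 252 of 464 genes and the lower in 204. With length held at 150 to 210 bases as well, members were higher in 36 and lower in 33 of 70 genes in A549/DDP, and higher in 22 and lower in 45 of 72 genes in A549. For p, the smallest value of each kind was taken per gene. The members had the smaller one in 314 of the 505 genes in A549/DDP and in 305 of the 464 in A549. At 150 to 210 bases they had it in 30 of 70 and 28 of 72 genes. A smallest value also depends on how many peaks of a kind a gene has, so these counts do not compare single peaks. The lower fold of members over the whole list was thus not seen within genes at all lengths, and at matched length it was seen within genes in A549 but not in A549/DDP.

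In members of 2 blocks the exon on the 5′ side held more of the peak than the exon on the 3′ side. The 5′ block was the larger in 60.4% of those with unequal blocks in A549/DDP (58.5 to 62.2%) and in 57.7% in A549 (55.8 to 59.7%). The median 5′ block had 89 bases and the median 3′ block 62 in A549/DDP. In A549 the medians were 85 and 65. Genes on the plus strand gave 61.9% in A549/DDP and 59.2% in A549, and genes on the minus strand 58.3% and 55.8%, so the asymmetry followed the direction of the transcript. With 1 peak kept per merged region it was 57.7% in A549/DDP and 55.5% in A549. Members of 2 blocks with a p below the median of their list gave 66.4% in A549/DDP and 59.7% in A549, and the others gave 57.2% and 56.9%. In A549 the members that overlapped no A549/DDP peak gave 52.4%, with an interval of 48.8 to 56% that includes an even split.

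**Figure D2:**
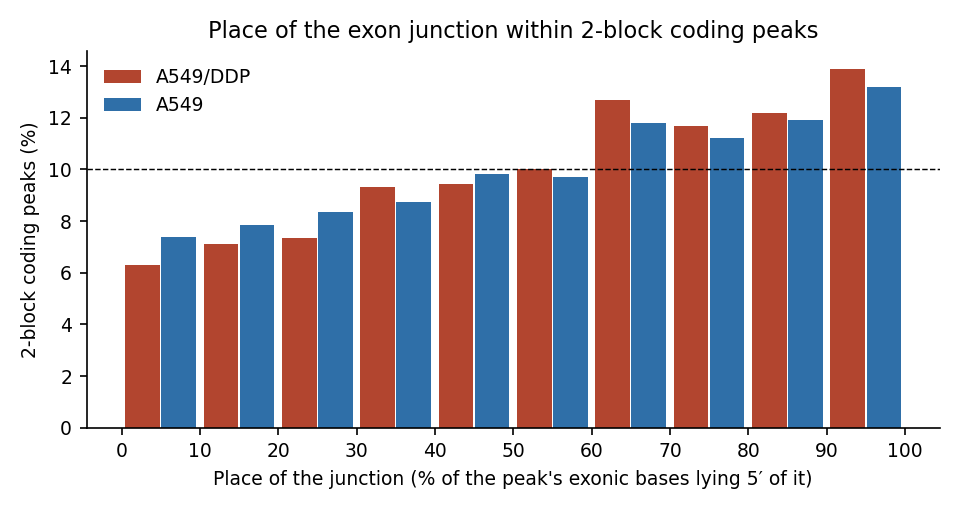
Place of the junction in 2-block coding peaks, as the percentage of the peak's exonic bases lying 5′ of it, for A549/DDP (red) and A549 (blue). The dashed line marks the 10% that an even spread would give in each class; the classes nearest the 3′ end hold 13.9% of peaks in A549/DDP and 13.2% in A549, those nearest the 5′ end 6.32% and 7.40%.

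Among peaks of 2 blocks that reached into untranslated regions (UTRs), those on the 5′ side also more often had the larger block 5′. For peaks over 5′ UTR and coding sequence the 5′ block was the larger in 66.6% in A549/DDP and 60.6% in A549. The interval in A549, 56 to 65.1%, overlaps that of the members. Peaks in the 5′ UTR alone gave 65.5% and 60%. In peaks over coding sequence and 3′ UTR, the 3′ block usually includes part of the long last exon. There the 5′ block was the larger in 12.4% in A549/DDP and 10.5% in A549. The coding junction peaks stood between these kinds and nearer to the start-codon side.

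Genes of some functional groups carried members far more often than others, described here by counts beside the 22.6% of all genes with a peak in A549/DDP and 21.7% in A549. Chromatin modifiers and remodellers had members in 60 of 100 genes with a peak in A549/DDP and in 44 of 87 in A549. Genes of cytoskeletal scaffolds, motors and tubulins had them in 38 of 72 in A549/DDP and 42 of 68 in A549. Splicing factors and RNA helicases had them in 46 of 93 genes in A549/DDP and 39 of 84 in A549. Genes of the extracellular matrix and integrins had them in 14 of 30 in A549/DDP and 16 of 31 in A549. Chromatin genes also more often had a peak in coding sequence alone, 82 of 100 in A549/DDP beside 3035 of 7031 of all genes. Among genes with such a peak, 73.2% of chromatin genes had a member in A549/DDP and 65.7% in A549. For cytoskeletal genes it was 76% and 84%, for splicing genes 83.6% and 83%, and for matrix genes 93.3% and 88.9%. Of all such genes 52.4% and 54.2% did.

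The lowest shares included those of the ZNF zinc finger genes, most of which encode their fingers in a single long exon. They had members in 14 of 201 genes in A549/DDP and in 18 of 160 in A549, although 128 genes in A549/DDP and 87 in A549 had a peak in coding sequence alone. Cytosolic ribosomal protein genes, with short coding sequences, had members in 6 of 55 genes in A549/DDP and 8 of 55 in A549. Few of them, 7 in A549/DDP and 13 in A549, had a peak in coding sequence alone, and of those 85.7% and 61.5% had a member, beside 52.4% and 54.2% of all such genes. For ZNF genes that share was 10.9% in A549/DDP and 20.7% in A549. Genes of the NRF2, glutathione and redox group had members in 2 of 25 in A549/DDP and 5 of 31 in A549. Only 3 and 7 of them had a peak in coding sequence alone, and of those 66.7% and 71.4% had a member. No gene list was tested.

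**Figure D3:**
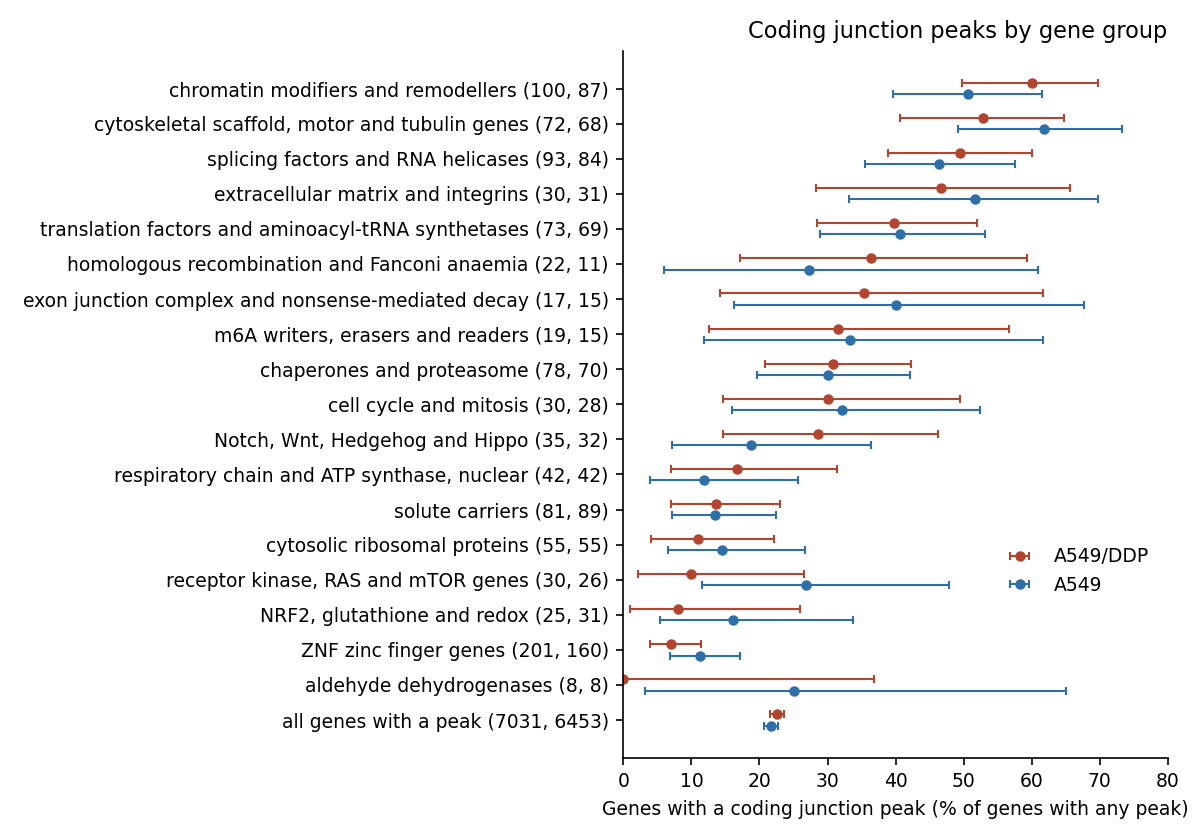
Share of genes with a coding junction peak among genes with any peak, for 18 gene groups and for all genes, in A549/DDP (red, upper point) and A549 (blue, lower point). Lines are exact binomial 95% intervals and the numbers in brackets are the genes with a peak in A549/DDP and in A549; chromatin genes reach 60.0% and 50.6%, ZNF genes 6.97% and 11.2%, and all genes 22.6% and 21.7%.

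A peak was called shared when at least 1 exonic base overlapped a peak of the other list on the same strand. Of the members 68.0% were shared in A549/DDP (66.8 to 69.2%) and 77.8% in A549 (76.7 to 79%). The share without overlap was 32.0% of members in A549/DDP, beside 32.8% of all distinct peaks of that list, and 22.2% in A549, beside 22% of all. Members therefore lacked a counterpart about as often as peaks in general. The 1-block coding peaks were shared in 49.8% in A549/DDP and 71.8% in A549.

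The exact blocks seldom recurred. Of the 5845 members in A549/DDP, 2.29% had identical blocks in A549, 56.6% overlapped another coding junction peak, 7.10% a 1-block coding peak and 2.05% a peak touching a UTR alone. Of the 5002 members in A549, 2.68% had identical blocks in A549/DDP, 66.0% overlapped another coding junction peak, 4.66% a 1-block coding peak and 4.48% a peak touching a UTR alone. The peaks with identical blocks numbered 134 in 95 genes. Their median fold was 3.21 in A549/DDP and 3.26 in A549.

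Among the identical peaks those with the smallest p in both lists were in RPS24, TPM4, EEF1G and NUDC. RPS24, a protein of the small ribosomal subunit, had a 2-block peak of 83 and 187 bases across an intron of 17226 bases on chromosome 10, 79796980 to 79814475. Its fold was 6.41 in A549/DDP and 4.01 in A549, and its p was listed as 0 in both. TPM4, a tropomyosin that binds actin filaments, had a 3-block peak on chromosome 19, 16192748 to 16198876, with a fold of 6.23 in A549/DDP and 4.29 in A549. EEF1G, a subunit of the translation elongation factor complex, had a fold of 2.00 in A549/DDP and 2.09 in A549 at a 2-block peak of 179 and 88 bases. NUDC, a dynein-associated protein needed in mitosis, had a fold of 3.21 in A549/DDP and 4.27 in A549 over 4 blocks.

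Sharing followed the strength of a peak. Each list was cut into 10 deciles by p. In decile 1, of the smallest p, 98.9% of members were shared in A549/DDP and 99.4% in A549. In decile 10 the shares were 26.2% in A549/DDP and 53.3% in A549. Block number moved with it: members of 2 blocks were shared in 55.8% in A549/DDP and 69.3% in A549, and those of 6 or more in 95.5% and 99.0%. Set against 1-block coding peaks of the same decile, A549/DDP members differed little, with 82.5% against 82.8% in decile 4 and 34.7% against 29.4% in decile 9. In A549 members were shared less often in deciles 3 to 9. The intervals did not overlap in decile 3 (89.8% against 97.2%), decile 6 (73.1% against 86.4%) and decile 8 (57.8% against 68.6%).

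**Figure D4:**
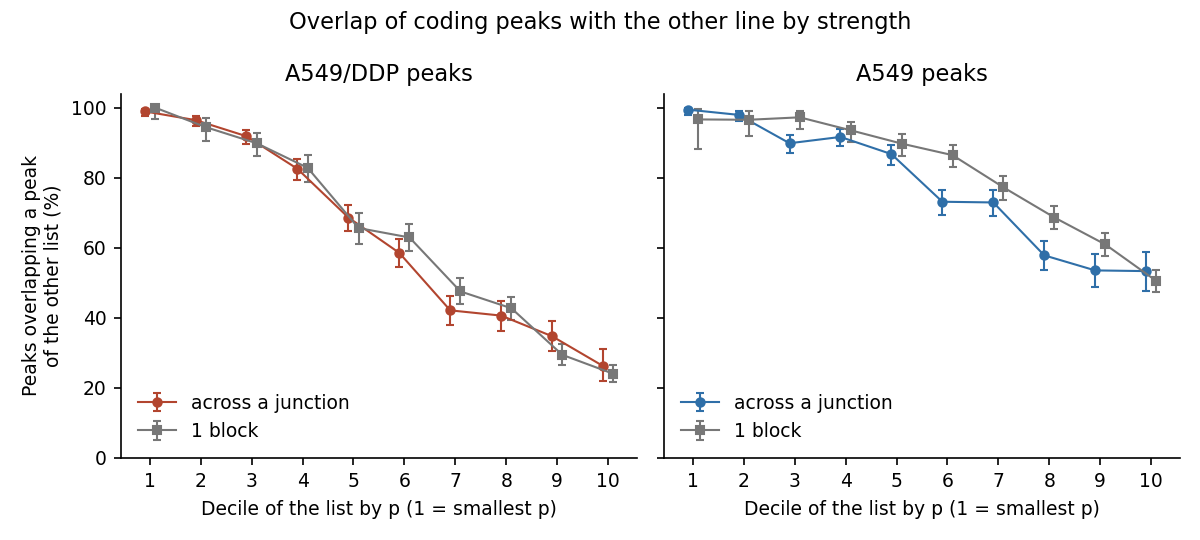
Percentage of coding peaks that overlap a peak of the other list, by decile of the list in order of p, for A549/DDP peaks (left) and A549 peaks (right). Coloured circles are coding junction peaks, grey squares 1-block coding peaks and bars exact binomial 95% intervals; members run from 98.9% to 26.2% in A549/DDP and from 99.4% to 53.3% in A549, below the 1-block peaks in deciles 3 to 9 of A549.

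Of the 2062 genes with a member, 662 had one in A549/DDP alone (32.1%), 472 had one in A549 alone (22.9%), and 928 had members in both lists. These shares count genes that lacked a coding junction peak in the other list. Those that lacked a peak of any kind there made up 12.9% for A549/DDP and 5.87% for A549, beside 18.9% and 11.6% over all genes with any peak. A gene that lacked a member in one list mostly had a peak of another kind there. Of the 662 genes, 266 had no peak at all in A549, 169 had a peak of another kind over the same bases and 227 had a peak elsewhere. Of the 472 genes, 121 had no peak at all in A549/DDP, 191 had a peak of another kind over the same bases and 160 had a peak elsewhere. A gene without a peak may also be scarce in that line. The lists hold no expression values, so less methylation and less RNA cannot be told apart.

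The 10 top genes by worse fold rank over the lists had folds from 15.2 to 101 in A549/DDP and from 15.7 to 58.6 in A549, and 5 of them lay on chromosome 19. MAZ, a zinc finger transcription factor, had the highest fold of A549/DDP members, 101, at a peak of 3 blocks with 957 exonic bases (chromosome 16, 29818173 to 29819614). In A549 its strongest member had a fold of 21.3 over 2 blocks with 388 exonic bases (29818156 to 29818627). SETD1A, a histone methyltransferase, reached 86.2-fold enrichment in A549/DDP at chromosome 16, 30990874 to 30992082. In A549 it reached 58.6 at 30990844 to 30991911, the highest fold of A549 members. Its A549/DDP peak had blocks of 642, 173 and 23 bases from the 5′ end, and its A549 peak blocks of 672 and 106, so the bulk lay in the same long exon.

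LMTK3, a membrane-bound kinase, had a fold of 28.2 in A549/DDP and 45.4 in A549 at peaks of 1349 exonic bases each, offset by 30 bases. FMNL1, an actin-nucleating formin, had folds of 27.3 in A549/DDP and 27.5 in A549. SCAF1, which binds the tail of RNA polymerase II, had the longest whole exon of either list, 2838 bases, inside peaks of fold 17.7 in A549/DDP and 18.9 in A549. LARP1, which binds messenger RNAs of the translation machinery, had 30.5 in A549/DDP and 15.7 in A549. The mitochondrial anchoring protein gene AKAP1 had identical blocks in the lists, with a fold of 21.1 in A549/DDP and 15.7 in A549. CAPNS1 (the calpain small subunit), PRR12 and the transcription factor gene USF2 completed the 10.

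Of the 10 genes with the highest fold among those with members in A549/DDP alone, 8 had a 1-block coding peak over the same bases in A549. These 10 do not stand for the whole class: of all 662 such genes, 169 (25.5%) had a peak of another kind over the same bases. RIC8B, a chaperone of G protein alpha subunits, had a member of 312 and 46 bases with a fold of 31.7 (chromosome 12, 107208771 to 107219549). SAP30 and SAP30L, both subunits of histone deacetylase complexes, had folds of 24.6 and 19.9 at members of 286 and 44 bases and of 201 and 68 bases. TAF3, a subunit of the basal transcription factor TFIID, had 18.4 over 4 blocks, and IRX3, a homeobox factor, had 16.8 over 3. In GPATCH2, ERICH1 and RAB11FIP2 the peak reached only 11, 48 and 8 bases past the junction, beside 437, 698 and 318 bases in the first block. HTT, which encodes huntingtin, was the exception without an overlap: its peak of 108, 84 and 19 bases had a fold of 30.5. C4orf48 overlapped a peak touching a UTR.

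Of the 10 genes with the highest fold among those with members in A549 alone, 6 overlapped an A549/DDP peak that also touched a UTR. These were SAMD1, USP32, SUV420H2, MXRA7, ZNF609 and CCNK. Of all 472 genes with members in A549 alone, 191 (40.5%) had a peak of another kind over the same bases in A549/DDP. SUV420H2 (now KMT5C), a histone lysine methyltransferase, had a fold of 13.8 at blocks of 34 and 446 bases. CCNK, a cyclin of transcriptional kinases, had 10.4 over 4 blocks, and ZNF609 had 10.7 across an intron of 122660 bases. SYNPO, which encodes the actin-associated protein synaptopodin, had the highest fold of this group, 35.5, and both it and AFF1 (16.1) overlapped a 1-block coding peak in A549/DDP. PABPN1, a nuclear poly(A)-binding protein, had a fold of 22.3, and its member overlapped, among other peaks, A549/DDP members filed under the readthrough gene BCL2L2-PABPN1. XYLT1, which starts glycosaminoglycan chains on proteoglycans, had a fold of 22.3 and no peak in A549/DDP.

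Some genes of the m6A machinery carried members. ZC3H13 is a scaffold of the methyltransferase complex. Its strongest member in A549/DDP had 7 blocks, among them a whole exon of 1224 bases, and a fold of 12. Its strongest member in A549 had 2 blocks, at other exons, and a fold of 5.84. The 4 junctions inside its A549 members also lay inside members of A549/DDP. RBM15, which recruits that complex to RNA, had a member of 207 and 33 bases with a fold of 7.62 in A549/DDP alone, over a 1-block coding peak in A549. HNRNPC, an RNA-binding protein whose access depends on m6A, had 3.70 in A549/DDP and 2.48 in A549. Of the genes of this group with a peak, 6 of 19 had a member in A549/DDP (31.6%) and 5 of 15 in A549 (33.3%). The intervals of 12.6 to 56.6% and 11.8 to 61.6% include the 22.6% and 21.7% of all genes with a peak.

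Among genes of the exon junction complex and of nonsense-mediated decay, 6 of 17 had a member in A549/DDP (35.3%) and 6 of 15 in A549 (40%). The intervals of 14.2 to 61.7% and 16.3 to 67.7% include the 22.6% and 21.7% of all genes with a peak. PNN and ACIN1, which both join the complex peripherally, had members in both lists, with folds of 7.10 and 10.7 in A549/DDP and 4.22 and 4.17 in A549. UPF2, a decay factor, had one in A549/DDP alone with a fold of 4.06. RNPS1, a splicing activator of the complex, had 13 members in A549 alone over 4 junctions, the strongest with a fold of 2.40. Of these, 12 overlapped A549/DDP peaks that touched a UTR and 1 overlapped none.

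Of the 67 chromatin genes with a member in either list, 23 had members in A549/DDP alone (34.3%, near the 32.1% of all genes with a member). A further 7 had them in A549 alone (10.4%, beside 22.9% of all) and 37 in both lists (55.2%, beside 45%). NCOA2, a nuclear receptor coactivator, had a fold of 12.1 at a peak whose second block had 1 base. SETDB1 and SETD2, both histone methyltransferases, had 11.2 and 7.41. All 3 peaks overlapped a 1-block coding peak in A549. KMT2B, another histone methyltransferase, had a member of fold 9.02 in A549 alone, with blocks of 1089 and 8 bases. CHD3 had members in both lists, with a fold of 6.45 in A549/DDP and 35.5 in A549 for its strongest peaks. These lay on chromosome 17 at 7793001 to 7796633 in A549/DDP and at 7788154 to 7794354 in A549, so they coincided in part. The A549/DDP peak had a counterpart of identical blocks in A549, with a fold of 6.61.

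Genes of DNA crosslink repair and drug handling were examined as well. Of the homologous recombination and Fanconi anaemia genes with a peak, 8 of 22 had a member in A549/DDP (36.4%) and 3 of 11 in A549 (27.3%), with wide intervals of 17.2 to 59.3% and 6.02 to 61% that include the shares of all genes. Of the 8 genes with a member in either list, 5 had members in A549/DDP alone, 0 had them in A549 alone and 3 had them in both lists, beside 32.1%, 22.9% and 45% of all genes with a member. ERCC4, a nuclease subunit that cuts at crosslinks, had a member of 26 and 453 bases with a fold of 9.85 in A549/DDP and a non-overlapping peak in A549. TP53BP1, a double-strand break factor, had 4.69 in A549/DDP and no peak in A549. RAD50 had its strongest members at different exons. These lay at chromosome 5, 131923356 to 131926952, in A549/DDP (fold 4.23) and at 131944407 to 131951807 in A549 (fold 1.79). The 4 junctions inside its A549 members also lay inside members of A549/DDP. The drug efflux pump genes ABCC1 and ABCC3 had members in A549 alone, with folds of 4.32 and 2.18. Both genes had peaks of another kind in A549/DDP, which did not overlap these members. They belong to the NRF2, glutathione and redox group, where 5 genes had a member. Of these, 3 had members only in A549 (60%, beside 22.9% of all genes with a member) and 0 only in A549/DDP. The other 2, PGD and TXNRD1, had folds of 2.51 and 2.71 in A549/DDP and 2.05 and 1.43 in A549. ALDH2 and ALDH3A1, which oxidise aldehydes, had members of fold 1.91 and 1.59 in A549 and no peak of any kind in A549/DDP. These counts are small, and the genes' RNA levels in the lines are not known from the lists.

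The junctions of the lists differed in the length of the intron and in their chromosomes. The members held 4855 distinct junctions in A549/DDP and 3983 in A549, and 2463 were inside members of both, 50.7% of those in A549/DDP and 61.8% of those in A549. Inside no peak of the other list were 45.6% in A549/DDP, beside 44.5% of all junctions in any peak there, and 29.9% in A549, beside 27.7%. The introns at these unmatched junctions differed in length. The median was 1892 bases for the 2212 junctions of A549/DDP alone, 898 for the 1189 of A549 alone and 1093 for those in both. With 1 value per gene the medians were 2015 over 1101 genes, 927 over 696 genes and 1435 over 875 genes in the same order. With members of p below the list's median alone they were 1729, 830 and 1021.

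Their chromosomes differed as well. Chromosome 19, which is dense in genes with short introns, held 4.07% of the junctions of A549/DDP alone (3.28 to 4.98%), 14.6% of those of A549 alone (12.6 to 16.7%) and 12.4% of those in both. By gene the shares were 4.90%, 14.4% and 11.1%. Chromosomes 16, 20, 22 and 11 were likewise lower in A549/DDP alone than in A549 alone, with 3.57% against 8.33% on chromosome 16 and 4.25% against 7.74% on chromosome 11. Chromosomes 3, 5, 13, 14 and 18 were higher, with 6.42% against 2.69% on chromosome 5 and 6.19% against 2.27% on chromosome 14. Leaving out chromosome 19 kept the difference in intron length, with medians of 1927 for A549/DDP alone, 914 for A549 alone and 1140 for both.

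**Figure D5:**
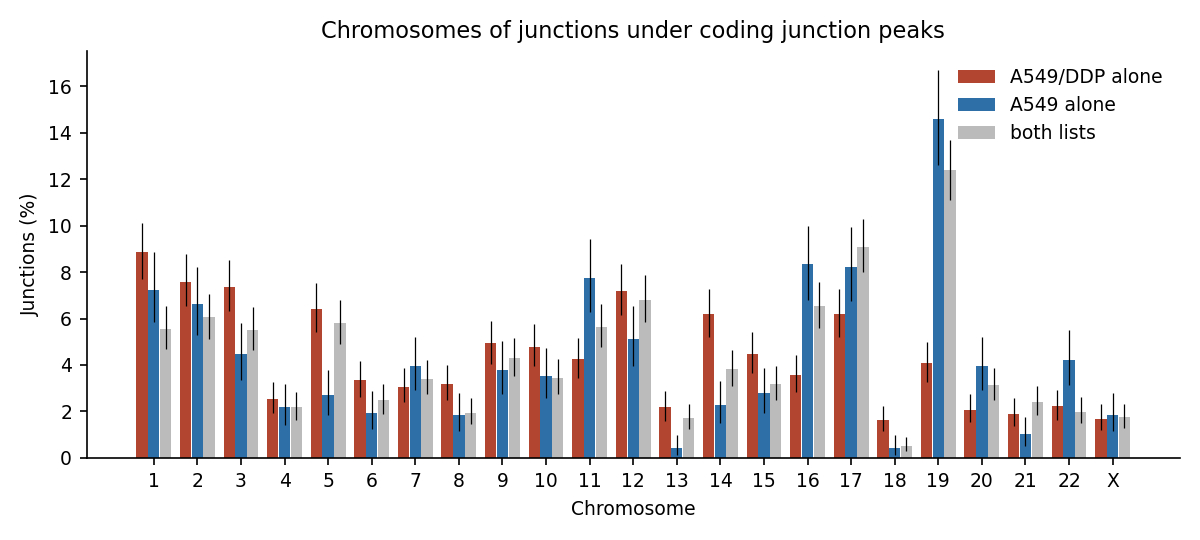
Percentage of junctions on each chromosome for junctions inside coding junction peaks of A549/DDP and no A549 peak (red), of A549 and no A549/DDP peak (blue), and inside such peaks of both lists (grey). Lines are exact binomial 95% intervals; on chromosome 19 the values are 4.07%, 14.6% and 12.4%.

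The contrast was also present over junctions inside any peak. There the median intron was 2101 bases in A549/DDP alone and 923 in A549 alone, and the chromosome 19 share 6.02% and 15.7%. Most of these junctions are those of the members, 2212 of 3901 in A549/DDP alone and 1189 of 1865 in A549 alone. They therefore do not show whether the contrast holds outside coding sequence. The chromosome 19 share differed by kind of peak. Of the members without overlap, 4.44% in A549/DDP and 12.7% in A549 lay on chromosome 19, and of the 1-block coding peaks without overlap 5.65% and 8.53%. Peaks over 5′ UTR and coding sequence without overlap ran the other way, with 11% in A549/DDP and 6.06% of 132 peaks in A549. Over all peaks without overlap the shares were 6.48% in A549/DDP and 9.16% in A549. Whether differences in expression, copy number or library composition move with these values was not tested.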

How the data were processed

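MeRIP-seq of A549/DDP and A549 comprised 4 libraries and was deposited as 1 peak list per line. The submitters' processing notes name HISAT2 and the hg19 build. Neither the peak caller nor its threshold nor the annotation release is given in the sources used here. Per the file headers, each row has the peak's blocks, gene, strand and transcript region. The fold, a linear ratio, and the p-value are the authors' deposited values. The lists hold no counts, so depth is unknown. Each list was taken as 1 line's immunoprecipitated over input result.

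Rows with the same blocks and strand were counted once, with region labels united and the row of smallest p kept. Overlaps needed 1 exonic base on the same strand. Intervals are Clopper-Pearson (95%). Positions count from 1. Python 3.11.15, pandas 2.3.3 and scipy 1.17.1 were used, and the overlap code was tested on simulated data. The members, gene lists and tests were chosen with earlier results of these data known. Named were the 10 genes of highest fold per class at peaks of p below the list's median (in both lists, by the worse rank), the 5 genes with most common junctions, the 5 peaks with most blocks per list, the 5 identical peaks of smallest p and up to 3 genes per gene list and class. One gene that this rule names is not reported here. Other genes named, such as CAST and PCDH9, were chosen after their values were seen. No sequence is printed because no hg19 genome was used here.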

Additional observations from a re-analysis of the deposited data

How the results depend on the processing

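Of 50 recomputed values, 14 stayed within their interval or within 1.5 times the count and 36 moved. The cause was not tested except where fewer peaks entered by construction. A reversal was looked for only in the excess of genes with members in A549/DDP alone over those in A549 alone, which kept its sign. The overlapping share of members became 54.9% in A549/DDP and 70% in A549 when 50% of a peak's bases had to overlap. It was 2.29% and 2.68% with identical blocks, and 58.9% and 68.7% with overlap of coding junction peaks alone. With both lists cut to folds of at least 5 it was 43.8% and 57%. With both lists cut to their stronger part by p it was 62.5% and 83.1%. Under either cut a member could also lose its counterpart. The deciles above were set against the whole other list. Merged regions gave 65.4% in A549/DDP. Genes with members in A549/DDP alone numbered 315 with folds of at least 5 and 411 in the stronger part, in A549 alone 180 and 228, and in both 178 and 527. With UTR labels allowed, genes in both numbered 1607 and the excess of A549/DDP alone over A549 alone was 405, against 190. Junctions in both lists were 30.4% of those in A549/DDP and 46.1% in A549 with folds of at least 5, 49.2% and 66.1% in the stronger part, and 54.4% and 70.1% when any peak of the other list counted. The junction-crossing share of coding peaks was 36.3% in A549/DDP and 30.1% in A549 with folds of at least 5, 68.5% and 69.1% in the stronger part, 45.6% and 47.4% in merged regions, and 42.5% and 42.7% with blocks of at least 10 bases. The larger 5′ block, under alternatives chosen after seeing the data, gave 57.7% in A549/DDP and 55.5% in A549 with 1 peak per region, and 58.3% on the minus strand in A549/DDP; the subsets of unmatched junctions were also chosen then.

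No paired analysis was possible because each group had 1 library. Peaks on overlapping isoforms repeat the same signal, and 1694 members in A549/DDP and 1422 in A549 had the same fold and p as another. Exonic lengths lay within 2 bases of a multiple of 30 for 80.4% of members in A549/DDP and 80.3% in A549, so block edges carry the step of the deposited calls and not the extent of the mark. Without counts, a missing peak cannot be separated from low depth or low expression.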

Other observations

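The coding junction peaks also lay beside other peaks of their own list. In A549/DDP 33.8% and in A549 34.9% of them overlapped a peak of another kind in the same list. A 1-block coding peak was overlapped by 12.5% in A549/DDP and 13.8% in A549, a peak touching a 5′ UTR by 14.4% and 13.5%, and a peak touching a 3′ UTR by 11.8% and 12.9%. Of the junctions inside members, 18.4% in A549/DDP and 18.4% in A549 had an end that another junction of the list also used. A gap of under 30 bases between blocks was seen at 1 junction in A549/DDP and 3 in A549.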
